A study of Mus musculus with 70 samples.

Results

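The transcripts described here are those of 9 transcription factors of kidney lineage and development, Wt1, Pax2, Pax8, Pax3, Lhx1, Osr1, Emx2, Foxc1 and Tbx4, in a mouse renal carcinoma line carried through repeated passage in mice. Probes were chosen by the gene of their target transcript, without regard to signal, which gave 11 of the 55681 probes on the array and 9 of its 21154 named genes. The cells were GFP-RENCA, a BALB/c renal carcinoma line that carries a lentiviral eGFP under the MND promoter. They were implanted into wild-type female BALB/c mice, 6 weeks old per the methods, so that every passaged group shares the reporter and an immunocompetent host of the same strain. The parental cells, which had not been passaged in mice, are called P0, and P1 to P6 are the sub-lines recovered after each successive passage.

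The passages followed 3 routes. Kidney Primary Tumor lines (KPT) were implanted under the kidney capsule and recovered from the kidney tumour, Kidney-to-Lung Metastases lines (K-LM) were implanted at the same site and recovered from the lung, and Tail-to-Lung Metastases lines (T-LM) were injected into the tail vein and recovered from the lung. Digested tissue was kept in culture for about 2 weeks before RNA was taken, until cells without GFP were no longer detected, per the methods. The unpassaged line gave 2 RNA samples, P0. From P1 to P6 there were 5, 2, 2, 3, 5 and 5 samples of KPT, 5, 2, 3, 4, 6 and 4 of T-LM, and 1, 1, 5, 3, 4 and 3 of K-LM. The labels number the replicates without tying a number to an animal, so p-values measure the spread between these samples, part of which may be technical. A sample of P1 whose title gives no route (LOT1) was placed in T-LM from its experiment label.

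These factors are best known from the embryo. Osr1 marks the intermediate mesoderm from which the urogenital system arises, Pax2, Pax8 and Lhx1 specify the nephric duct and drive the formation of renal epithelium, Emx2 acts in the ureteric bud, and Wt1 is required in the metanephric mesenchyme and later in podocytes. Pax3 acts in neural crest and muscle precursors, Foxc1 in mesoderm that includes the early kidney field, and Tbx4 in the hindlimb and in the mesenchyme of the lung. In the adult kidney Pax8 stays on in tubule epithelium, and it is widely used to identify renal carcinoma.

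Each array gave the fluorescence of a spot as an intensity. A level is the log2 of the processed intensity minus the 75th percentile of the probes that passed background on all arrays, so that 0 is the brightness of that percentile and a difference of 1 is a 2-fold difference in signal. Levels of the same probe can be compared between samples, but those of different probes cannot. The scanner software marked 25.1% to 55.1% of the probes of an array as well above background, and the lowest level that passed ranged from -7.77 to -5.00 over arrays. The 3 K-LM P6 arrays lay on a slide read later with another software version (the late slide), where the lowest passing level was -7.77 to -6.93, against -7.49 to -5.00 on the other slides. Repeat arrays of 5 RNA samples (both of P0 and KPT P6 replicates 1, 2 and 4) were on that slide too, and they tie it to the others. Of 9 markers of renal tubule epithelium, Krt8 and Krt18 passed in all 65 samples, Aqp2 in 26, Cdh16 in 21, Cdh1 in 7, Epcam in 5 and Slc12a1 in 3, while Slc34a1 and Umod, which mark differentiated tubule segments, passed in 0.

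The 9 factors fell into very different classes of detection. Pax8 was well above background in 65 of 65 samples and Wt1 in 63, whereas Emx2 passed in 26, Osr1 in 16, Tbx4 in 14 and Pax3 in 9. Lhx1 and Foxc1 passed in 2 samples each and Pax2 in 1. For comparison, the brightest probe of a named gene passed in all samples for 34.6% of genes and in none for 23.7%. The routes differed in which of the rarer factors they held. Pax3 passed in 8 of 22 KPT samples, 1 of 24 T-LM samples and 0 of 17 K-LM samples. Tbx4 passed in 0 of 22 KPT, 10 of 24 T-LM and 4 of 17 K-LM samples, and Osr1 in 2, 8 and 6. A sample hybridised on 2 arrays was counted here when at least 1 of them passed.

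**Figure D1:**
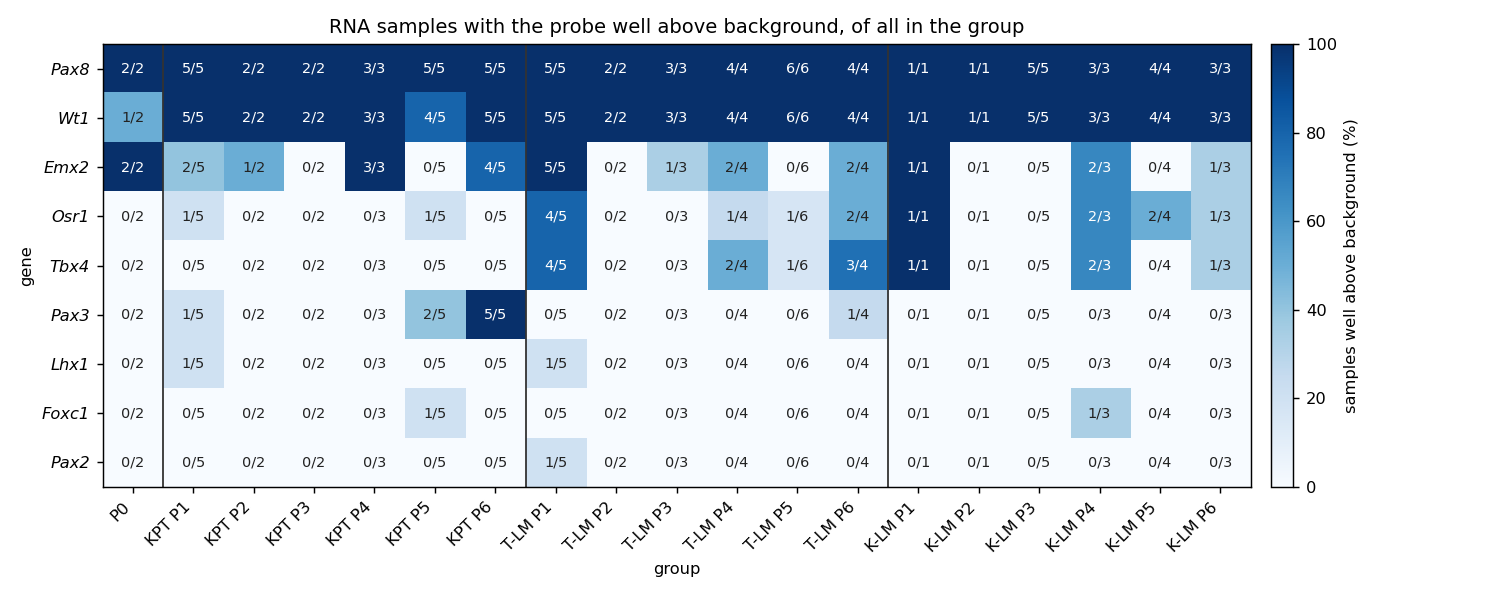
Number of RNA samples with the probe well above background, of all samples in the group, for each of the 9 genes (rows) in P0 and in each passage of the 3 routes (columns). Pax8 passed in all 65 samples, while Pax3 passed mainly in late KPT passages and Tbx4 in no KPT sample.

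Changes were tested with limma at an adjusted p of 0.01 or less, over all probes that passed background on 2 or more arrays of a fit, and a probe past that threshold is called here. From P0 to P6, the KPT fit called 1 member of 4 tested (Pax3, higher), the T-LM fit 1 of 5 (Wt1, higher) and the K-LM fit 1 of 6 (Wt1, higher). Among all tested probes, KPT had 3.40% called higher and 0.472% lower, T-LM 5.90% higher and 1.41% lower, and K-LM 4.08% higher and 1.41% lower. From P3 to P6, 1 member was called higher in each route, Pax3 in KPT, Tbx4 in T-LM and Wt1 in K-LM, beside 0.629%, 5.62% and 3.85% of all probes called higher. From P1 to P6, Pax3 was the 1 member of 5 called in KPT, higher, beside 5.30% of probes called higher. In T-LM limma called 0 of 5 members from P1 to P6, with 1 at an unadjusted p under 0.05, against 9.28% of probes called in either direction.

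More members were called between routes at P6 than from P0 to P6 within the routes. Of 6 members tested at P6, T-LM differed from KPT in 4, with Wt1, Osr1 and Tbx4 higher and Pax3 lower, where 6.98% of all probes were called higher and 4.53% lower. K-LM differed from KPT in 3, with Wt1 higher and Pax3 and Emx2 lower, beside 6.24% of probes called higher and 9.79% lower. K-LM differed from T-LM in 1, Pax3, which was lower, as were 7.70% of all probes. The members tested are those that passed background somewhere in the fit, and a gene that passed only where it is high had to differ, so these counts describe the members and are no measure of how often such genes change. The comparisons share the same P0 or P6 samples.

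**Figure D2:**
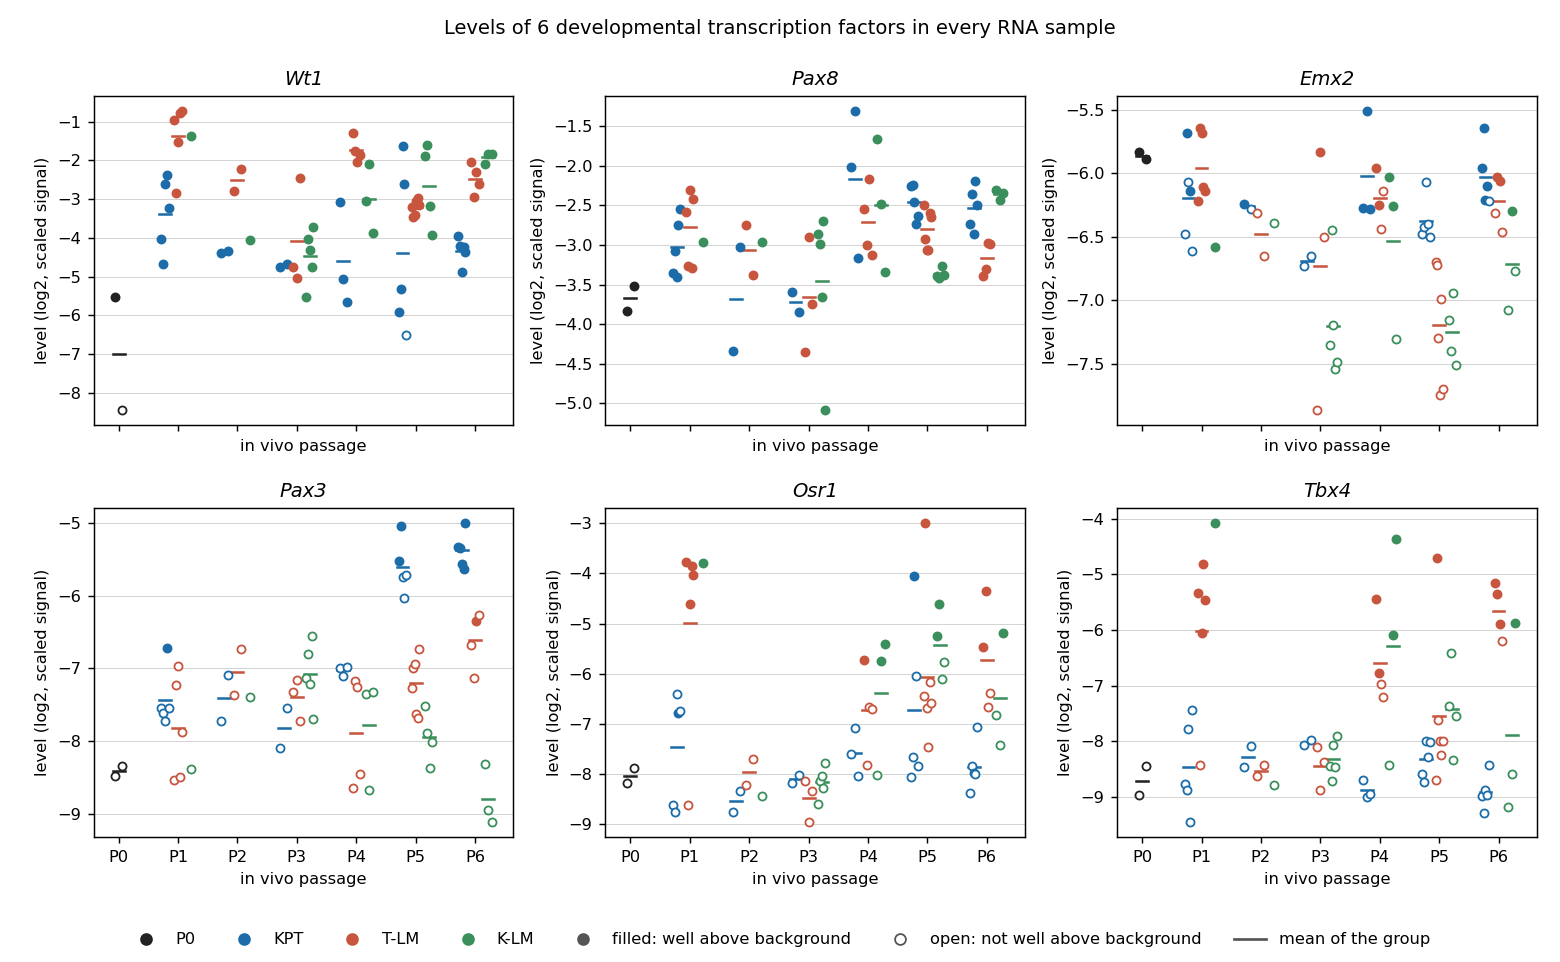
Level (log2 scaled signal, vertical axis) against in vivo passage (horizontal axis) for 6 of the factors, with 1 point per RNA sample, coloured by route and filled where the probe was well above background. Wt1 was high in T-LM P1 and in both lung-derived routes at P6, Pax3 rose in KPT P5 and P6, and Osr1 and Tbx4 varied widely between samples of the same group.

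Pax8, the paired box factor that marks renal epithelium, was the one factor detected in every sample. Its level lay between -5.09 and -1.31 over all samples. In P0 it was -3.83 and -3.52, and in KPT P6 it was -2.86, -2.19, -2.74, -2.36 and -2.49, so that all 5 passaged samples were above both parental ones. Its fitted log2 change from P0 to P6 was 1.41 for KPT (SE 0.398, adjusted p = 0.0425), 0.83 for T-LM (SE 0.335, adjusted p = 0.13) and 1.14 for K-LM (SE 0.464, adjusted p = 0.139), none of which was called. Pax8 was called in KPT in a fit on the compared groups alone (adjusted p = 0.00277) and on the late slide alone (adjusted p = 0.00387), and in K-LM likewise (adjusted p = 9.64e-04 and 0.00252). At P6 it was -3.39, -3.30, -2.98 and -2.99 in the T-LM lines, against -2.31, -2.43 and -2.34 in the K-LM lines. The T-LM samples all lay below those of KPT, with a difference of -0.53 that was not called (SE 0.161, adjusted p = 0.0281).

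For Pax8, seen in every sample, and for Tbx4, which was detected in some lung-derived lines, the 250 bases before the annotated start are shown, from RefSeq on GRCm38.p6. Capitals mark matches on either strand to 3 core promoter motifs, the TATA box (TATAAA), the CCAAT box (CCAAT) and the GC box (GGGCGG), which do not overlap here. The arrays measured no promoter, so the sequences are given as context for the genes.
Pax8 (chr2:24475600-24475849, minus strand): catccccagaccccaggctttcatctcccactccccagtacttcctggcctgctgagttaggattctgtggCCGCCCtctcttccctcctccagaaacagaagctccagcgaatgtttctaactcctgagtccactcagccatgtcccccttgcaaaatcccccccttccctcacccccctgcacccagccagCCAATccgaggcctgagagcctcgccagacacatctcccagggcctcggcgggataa
Tbx4 (chr11:85896515-85896764, plus strand): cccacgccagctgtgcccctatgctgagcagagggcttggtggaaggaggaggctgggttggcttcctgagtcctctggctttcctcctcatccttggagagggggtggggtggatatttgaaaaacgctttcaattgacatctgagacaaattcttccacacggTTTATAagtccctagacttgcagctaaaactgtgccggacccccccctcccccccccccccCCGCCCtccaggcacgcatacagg
The Pax8 window held a CCAAT match that starts 57 bases before the start and a GC box match on the other strand at 179 bases. The Tbx4 window held a TATA box match on the other strand at 85 bases and a GC box match, also on the other strand, at 24 bases. Of 32851 windows of this length, 12.4% held TATAAA, 33.8% held CCAAT and 32.7% held GGGCGG. The GC content was 60.4% for Pax8 and 58.4% for Tbx4, against a median of 52.4% over all windows. A match is a description of the letters and not a measured site.

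Wt1, a zinc finger factor of nephron progenitors, podocytes and mesothelium, had its lowest sample in P0 and was higher in the lines recovered from the lung than in KPT at P6. The 2 parental samples disagreed. P0 replicate 1 had a level of -5.53 and passed background on both of its arrays (-5.50 and -5.56), while replicate 2 had a level of -8.45 and passed on neither (-7.93 and -8.97). The late slide held an array of each, the -5.56 and the -8.97, whereas their first arrays were on different slides.

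At P6 the KPT samples had Wt1 levels of -4.87, -4.24, -3.96, -4.22 and -4.37. Those of T-LM were -2.05, -2.95, -2.29 and -2.60, and those of K-LM were -2.08, -1.84 and -1.83. The lung-derived samples of both routes all lay above every KPT sample, and all P6 samples lay above both P0 samples. The log2 rise of Wt1 from P0 to P6 was 4.24 for T-LM (SE 0.583, adjusted p = 4.21e-05) and 5.10 for K-LM (SE 0.711, adjusted p = 1.82e-05). In KPT the fitted change was 2.29 (SE 1.05, adjusted p = 0.258), which was not called. Because the parental samples differ, these sizes depend on which is used: without P0 replicate 2 the change was 3.03 in T-LM and 3.52 in K-LM, both still called, and without replicate 1 it was 5.46 and 6.56. Without P0 replicate 2 the KPT value was 1.08, and without replicate 1 it was 3.51, neither called. In such bulk RNA, fewer cells of a type and less RNA per cell cannot be told apart. Wt1 belongs to the signature that the study derived for K-LM from these same samples, so its rise there is not independent evidence.

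The rise was not a steady climb. In T-LM, Wt1 was already at its highest at P1, where replicates 2 to 5 had levels of -1.52, -0.77, -0.73 and -0.95 and LOT1 had -2.85. It was lower at P3, with -4.74, -5.04 and -2.46, and group means from P1 to P6 were -1.36 ± 0.887 (SD, n = 5), -2.50 ± 0.390 (n = 2), -4.08 ± 1.41 (n = 3), -1.73 ± 0.309 (n = 4), -3.20 ± 0.190 (n = 6) and -2.47 ± 0.389 (n = 4). The change from P1 to P6 was -1.11 (SE 0.483, adjusted p = 0.114) and that from P3 to P6 was 1.61 (SE 0.514, adjusted p = 0.0426), neither of which was called. Without T-LM P3 replicate 5, the sample at -2.46, the change from P3 to P6 was 2.42 and was called (adjusted p = 0.00113).

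In K-LM the single P1 sample had a Wt1 level of -1.37 and the single P2 sample -4.06. The P3 samples lay at -4.76, -5.53, -4.03, -3.73 and -4.30, and the means of P4, P5 and P6 were -2.99 ± 0.891 (SD, n = 3), -2.65 ± 1.10 (n = 4) and -1.92 ± 0.143 (n = 3). All 3 P6 samples were above all 5 P3 samples, and the rise was 2.60 (SE 0.656, adjusted p = 0.00986). This call was at the edge of the threshold. It was lost when any single K-LM P6 sample was left out, and without any single K-LM P3 sample but replicate 3, with adjusted p from 0.0122 to 0.0363 over those settings. The call was also lost without the filter on background (adjusted p = 0.0280), with the percentile taken over all probes (adjusted p = 0.0123), in a fit of all routes (adjusted p = 0.0183) and with the RNA balance index as a covariate (2.63, adjusted p = 0.0947). This index is the level of long mRNAs relative to ribosomal protein mRNAs, a sign of how complete the labelled RNA was. It averaged -8.50 in K-LM P3 and -6.87 in K-LM P6, and the long mRNAs had a median change of 1.17. The part of this balance in the Wt1 values was not tested. In KPT the mean was -3.38 ± 0.970 (n = 5) at P1 and between -4.71 and -4.33 from P2 to P6, and P5 ranged from -6.50 to -1.64.

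Between routes at P6, Wt1 was higher than in KPT by 2.49 for K-LM (SE 0.539, adjusted p = 0.00230) and by 1.86 for T-LM (SE 0.463, adjusted p = 0.00782). The T-LM call was lost when any 1 of the 9 samples compared was left out, with adjusted p from 0.0111 to 0.0305, while the difference stayed between 1.71 and 2.02. It was lost as well without the filter on background (adjusted p = 0.0163), with the balance index (adjusted p = 0.0122), with the compared groups alone (adjusted p = 0.0136) and in a fit of all routes (adjusted p = 0.0845). The K-LM call was lost on the late slide alone, where the difference was 2.37 (adjusted p = 0.0335), in a fit of all routes (adjusted p = 0.0238), without K-LM P6 replicate 2 (adjusted p = 0.0104) and without KPT P6 replicate 1 (adjusted p = 0.0108). K-LM and T-LM differed by 0.63 (SE 0.632, adjusted p = 0.523), which was within their spread.

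Markers of fibroblasts and stroma moved with Wt1 in part. The mean level of the 8 markers (Col1a1, Col1a2, Col3a1, Dcn, Lum, Pdgfra, Pdgfrb and Thy1) was -7.87 and -7.86 in P0, -5.36 to -4.34 in KPT P6, -4.44 to -3.02 in K-LM P6 and -3.07 to -1.45 in T-LM P6. In P0 between 2 and 4 of the 8 passed background, and Lum, Pdgfra, Pdgfrb and Thy1 passed in neither sample. In KPT P6 and K-LM P6 it was 6 or 7 of 8, and in T-LM P6 it was 7 or 8. At T-LM P1 the list averaged -2.45 to -0.98 in replicates 2 to 5 and -6.70 in LOT1, where Wt1 was still -2.85. In T-LM P5 replicate 1 the list was at its highest of all samples, 0.74, while Wt1 was at -3.45, the lowest of that group. KPT P5 replicates 1 and 2 had Wt1 at -1.64 and -2.60, with the list at -0.48 and -2.10. Replicates 3 to 5 of KPT P5 had Wt1 at -5.92, -5.32 and -6.50, with the list at -5.08, -5.53 and -4.85. KPT P1 replicates 4 and 5 were the highest of their group in Wt1 (-2.60 and -2.37) and in the list (-1.33 and -1.74). The part of these cells in the Wt1 values was not tested.

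**Figure D3:**
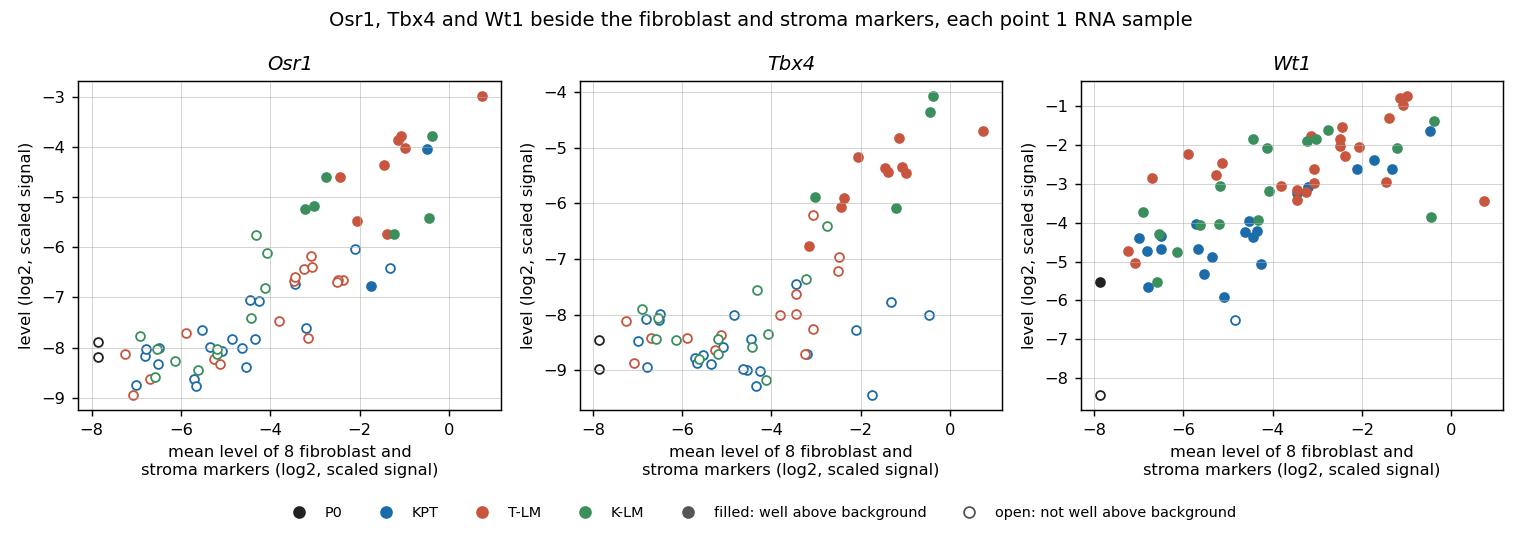
Level of Osr1, Tbx4 and Wt1 (log2 scaled signal, vertical axes) against the mean level of 8 fibroblast and stroma markers (horizontal axes), with 1 point per RNA sample, coloured by route and filled where the gene's probe was well above background. The highest Osr1 level, -2.99, lay at the highest marker mean, 0.74, while Wt1 was also high in samples with lower marker means.

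Pax3, a paired box factor of neural crest and muscle precursors, was higher in KPT than in both other routes at P6. It has 2 probes on the array. On the brighter one, P0 had levels of -8.48 and -8.34, neither above background, and the KPT P3 samples had -7.54 and -8.09. The 5 KPT P6 samples had -5.57, -5.63, -5.33, -5.35 and -5.00, all above background and all higher than any earlier sample of the route outside P5. Pax3 rose by 2.80 on the log2 scale from P0 to P6 in KPT (SE 0.25, adjusted p = 1.01e-06). Because P0 was below background, the size depends on what is taken for it. In another setting dim signals were lifted, that is, those below the lowest passing signal of the array were set to that signal. The change was then 0.72 and was not called (adjusted p = 0.0941). A stricter filter on background left Pax3 untested in KPT.

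The rise came late. Group means of KPT were -7.43 ± 0.403 (SD, n = 5) at P1, -7.40 ± 0.448 (n = 2) at P2, -7.82 ± 0.387 (n = 2) at P3 and -7.03 ± 0.0651 (n = 3) at P4, and then -5.62 ± 0.364 (n = 5) at P5 and -5.38 ± 0.249 (n = 5) at P6. KPT P1 and P6 did not overlap, and the change between them was 2.20 (SE 0.204, adjusted p = 4.03e-07). From P3 to P6 it was 2.58 (SE 0.25, adjusted p = 3.19e-04), at least 1.75-fold with P3 set to the lowest passing signal. That call was lost without KPT P3 replicate 2 (adjusted p = 0.0587), with the slide as a block (adjusted p = 0.0802), with dim signals lifted (0.95, adjusted p = 0.0249) and with the RNA balance index as a covariate (1.87, adjusted p = 0.267). That index rose as well, from a mean of -8.57 in KPT P3 to -6.82 in KPT P6, and its long mRNAs had a median change of 1.4, with 16 of 16 at an unadjusted p under 0.05. The part of this balance in the Pax3 values was not tested. Within a single slide, the Pax3 difference from P0 to P6 was 3.03 on the late slide (2 and 3 arrays) and 3.35 on another (1 and 1).

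In the lung-derived routes Pax3 did not reach these levels. T-LM P6 had -6.68, -7.13, -6.35 and -6.27, of which only the -6.35 of replicate 3 passed background, and K-LM P6 had -8.32, -8.94 and -9.11, none of which passed. The routes did not overlap at P6, in the order KPT, T-LM and K-LM. Pax3 was lower in T-LM than in KPT by a fitted -1.40 (SE 0.208, adjusted p = 8.50e-05). In K-LM it was lower than in KPT by a fitted -3.00 (SE 0.243, adjusted p = 1.53e-07), and with dim signals lifted by -1.08, still called (adjusted p = 0.00433). K-LM was in turn lower than T-LM by a fitted -1.59 (SE 0.285, adjusted p = 6.75e-04), but with dim signals lifted the difference was 0.34, in the other direction and not called. The K-LM change from P0 to P6 was -0.09 (SE 0.375, adjusted p = 0.940).

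The second Pax3 probe, printed at 10 spots per array, never passed background, so no change of Pax3 can be read from it and the values above rest on 1 probe. The fibroblast and stroma markers averaged -5.36 to -4.34 in KPT P6, below every T-LM P6 sample (-3.07 to -1.45) and overlapping with K-LM P6 (-4.44 to -3.02). The 9 tubule markers averaged -5.41 to -5.03 in KPT P6, -5.10 to -4.91 in T-LM P6 and -6.12 to -6.00 in K-LM P6. The part of either list in the Pax3 values was not tested.

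**Figure D4:**
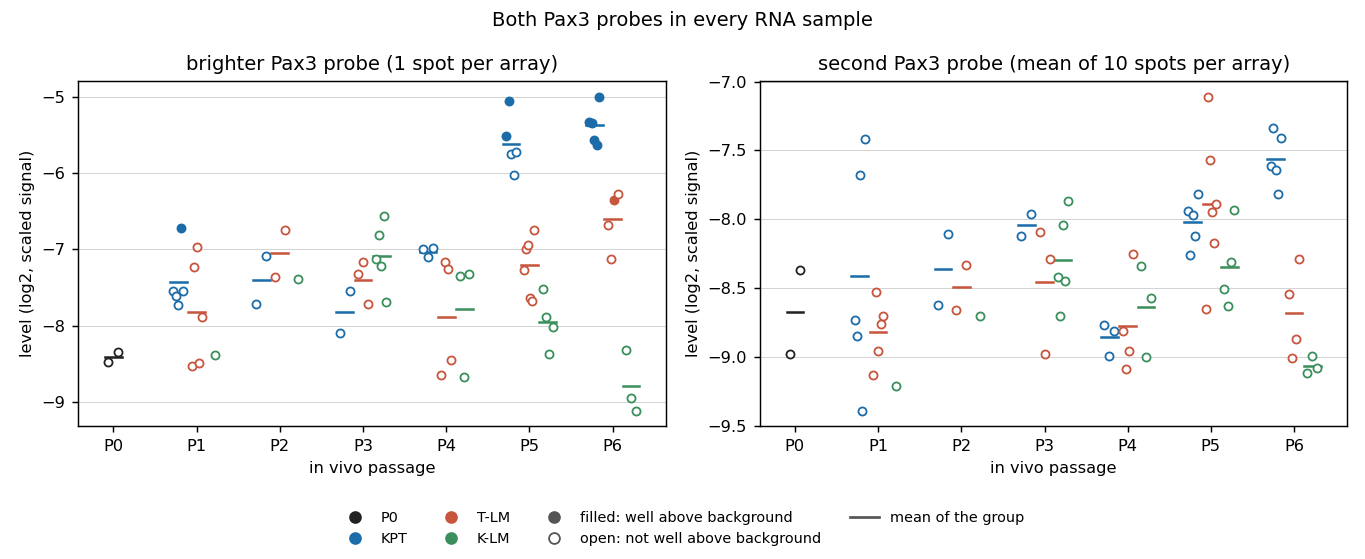
Level of the brighter Pax3 probe (left, 1 spot per array) and of the second Pax3 probe (right, mean of 10 spots) against in vivo passage, with 1 point per RNA sample, coloured by route and filled where well above background. The brighter probe rose to between -5.63 and -5.00 in KPT P6, while the second never passed background.

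Osr1, a zinc finger factor of intermediate mesoderm and of embryonic mesenchyme, was below background in P0, at -8.18 and -7.88. It passed in 8 of 24 T-LM samples, 6 of 17 K-LM samples and 2 of 22 KPT samples. At P6 it was -5.47, -4.36, -6.66 and -6.39 in T-LM, of which replicates 1 and 2 passed background, and -6.81, -7.42 and -5.19 in K-LM, of which replicate 3 passed. In KPT P6 it was -7.98, -8.00, -8.38, -7.83 and -7.06, with none above background. Every T-LM sample was higher than every KPT sample, and the difference was 2.16 (SE 0.427, adjusted p = 0.00129). The call was lost with dim signals lifted (0.84, adjusted p = 0.193) and in a fit of all routes (adjusted p = 0.0706). The K-LM difference from KPT was 1.38 (SE 0.497, adjusted p = 0.0473), and the change from P0 to P6 was 2.23 for T-LM (SE 0.869, adjusted p = 0.113) and 1.54 for K-LM (SE 0.578, adjusted p = 0.10), none of which was called. From P3 to P6 it was 2.75 for T-LM (SE 0.766, adjusted p = 0.0208) and 1.65 for K-LM (SE 0.533, adjusted p = 0.0347), with no overlap between the passages and no call.

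The highest Osr1 levels were in early or single samples. T-LM P1 replicates 2 to 5 had -4.61, -3.86, -4.03 and -3.78, all above background, whereas LOT1 had -8.62. The K-LM P1 sample had -3.79, T-LM P5 replicate 1 had -2.99 and KPT P5 replicate 1 had -4.05. In each of these samples the fibroblast and stroma list was high as well, at -2.45 to -0.98 in T-LM P1 replicates 2 to 5, -0.38 in K-LM P1, 0.74 in T-LM P5 replicate 1 and -0.48 in KPT P5 replicate 1. In LOT1 both were low. These samples were named for their Osr1 levels, and a high list also occurred with little Osr1. In T-LM P4 the list averaged -3.15 to -1.39 with 8 of 8 markers above background, while Osr1 passed in 1 of 4 samples (mean -6.73). KPT P1 replicates 4 and 5 had the list at -1.33 and -1.74, while Osr1 passed in 1 of the 5 KPT P1 samples and reached at most -6.41. At P3, where Osr1 passed in no sample of any route, the list averaged -7.25 to -5.13 in T-LM and -6.91 to -5.20 in K-LM. The part of these markers in the Osr1 values was not tested.

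Tbx4, the T-box factor of hindlimb and lung mesenchyme, was detected only in samples recovered from the lung. P0 had -8.97 and -8.45, and the 22 KPT samples lay between -9.45 and -7.44, none above background. T-LM P6 had -5.16, -5.36, -5.90 and -6.20, of which replicates 1 to 3 passed, and T-LM P3 had -8.11, -8.87 and -8.37, of which none passed. K-LM P6 was split between replicates, with -9.18 and -8.59 below background and -5.88 above it. K-LM P6 replicate 3, the sample that passed, also had the highest Osr1 and the highest fibroblast marker mean of the group (-3.02).

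At P6 Tbx4 was higher in T-LM than in KPT by 2.98 (SE 0.455, adjusted p = 1.09e-04), with no overlap, and the call was lost with dim signals lifted (0.90, adjusted p = 0.0349). Its rise from P3 to P6 of the T-LM lines was 2.80 (SE 0.657, adjusted p = 0.00717). This call was lost when any single T-LM P3 sample, or any of T-LM P6 replicates 1 to 3, was left out, with adjusted p from 0.0157 to 0.0237, with dim signals lifted (0.88, adjusted p = 0.169) and with the slide as a block (adjusted p = 0.0295). Its change from P0 to P6 was 2.36 for T-LM (SE 0.745, adjusted p = 0.0434) and 1.27 for K-LM (SE 0.792, adjusted p = 0.399), neither called. K-LM differed from KPT by 1.65 (SE 0.530, adjusted p = 0.0281) and from T-LM by -1.34 (SE 0.621, adjusted p = 0.136), and without K-LM P6 replicate 3 the difference from T-LM was -2.34 and was called (adjusted p = 2.60e-04). Without K-LM P6 replicate 1 the difference from KPT was 2.29 and was called (adjusted p = 0.00513). Tbx4 belongs to the signature that the study derived for T-LM from these samples, so its rise there is not independent evidence.

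As with Osr1, the level varied widely within a group. T-LM P1 replicates 2 to 5 had Tbx4 levels of -6.06, -4.82, -5.46 and -5.34, all above background, and LOT1 had -8.42. K-LM P1 had -4.07, T-LM P5 replicate 1 had -4.70 against -8.70 to -7.62 in the other 5 samples, and K-LM P4 replicates 1, 3 and 5 had -8.43, -6.08 and -4.36. These last followed the fibroblast and stroma list, which was -5.19, -1.22 and -0.45 in the same order. KPT P5 replicate 1, where that list was at -0.48 with 8 of 8 markers above background, had no Tbx4 signal above background although its Osr1 was at -4.05. Of the 14 samples with Tbx4 above background, 12 also had Osr1 above it. The part of the markers in the Tbx4 values was not tested.

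Markers of lung epithelium were also higher in T-LM P6, the group with the Tbx4 call. The mean level of the 6 markers (Sftpc, Sftpb, Sftpa1, Scgb1a1, Foxj1 and Nkx2-1) was -8.04 to -7.82 in T-LM P3, with 0 or 1 above background, and -6.48 to -5.12 in T-LM P6, with 2 to 4 above background. Sftpc, the surfactant protein of alveolar type II cells, was at -3.64, -0.88, -2.57 and -3.95 in the T-LM P6 samples and below background in all of T-LM P3. Nkx2-1 and Sftpa1 passed in no sample of either group. The list averaged -8.12 to -7.62 in KPT P6 and -8.02 to -7.83 in K-LM P6. Tbx4 was also above background in T-LM P1 replicates 2 to 5 and in the K-LM P1 sample. In replicate 2 the list averaged -6.89 with 4 of 6 markers passing. In replicates 3 to 5 and in K-LM P1 it averaged -8.78 to -8.35 with 0 or 1 marker passing. The part of these markers in the Tbx4 values was not tested.

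Emx2, a homeobox factor of the ureteric bud, was close to the limit of detection in every group and was lower in K-LM than in KPT at P6. P0 had -5.83 and -5.89, and each sample passed background on its late-slide array (-5.58 and -5.61) and not on its first (-6.08 and -6.16). KPT P6 had -6.21, -6.10, -5.96, -5.64 and -6.22, T-LM P6 had -6.31, -6.03, -6.06 and -6.46, and K-LM P6 had -7.08, -6.30 and -6.77. The K-LM samples all lay below those of KPT, by a fitted -0.90 (SE 0.189, adjusted p = 0.00180). On the late slide alone this difference was -0.82 and not called (adjusted p = 0.0231), and without K-LM P6 replicate 1 it was -0.72 (adjusted p = 0.0183). Its change from P0 to P6 was 0.04 for KPT (SE 0.209, adjusted p = 0.955), -0.10 for T-LM (SE 0.399, adjusted p = 0.932) and -1.01 for K-LM (SE 0.321, adjusted p = 0.0458), none called. The signs of the KPT and T-LM changes turned under other settings.

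Emx2 was lowest in T-LM P5, K-LM P3 and K-LM P5, where it passed in 0 of 6, 0 of 5 and 0 of 4 samples with means of -7.19 ± 0.47, -7.21 ± 0.444 and -7.25 ± 0.253 (SD). The RNA balance index was low in the same groups, at -8.68 to -7.47, -9.59 to -7.53 and -9.37 to -8.46, against -6.95 and -6.89 in P0. In the P6 groups it was -7.50 to -6.48 in KPT, -7.60 to -6.89 in T-LM and -6.93 to -6.83 in K-LM. The part of this balance in the Emx2 values was not tested.

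Lhx1, Pax2 and Foxc1 were at or near background throughout. Lhx1, a LIM homeobox factor of the nephric duct and early nephron, passed in KPT P1 replicate 5 (-7.10) and T-LM P1 replicate 2 (-5.22). Pax2, the paired box factor that acts with Pax8 in the nephric duct, passed in T-LM P1 replicate 2 alone, at -4.64, where the other 4 samples of the group lay between -9.11 and -8.67, and its second probe passed in no sample. The forkhead factor Foxc1 passed in KPT P5 replicate 1 (-4.88) and K-LM P4 replicate 5 (-6.27). None of these was tested, since each passed on fewer than 2 arrays of every fit. T-LM P1 replicate 2 thus held 2 factors of the nephric duct that no other T-LM sample held. The same sample had 6 of 9 tubule markers above background (mean -4.73), against 3 of 9 in the other 4 samples of its group (-6.01 to -5.52), and 4 of 6 lung epithelium markers (mean -6.89), against 0 or 1. KPT P1 replicate 5 also had 6 of 9 tubule markers above background (mean -4.69), and the Foxc1 samples were high in fibroblast and stroma markers, at -0.48 and -0.45. The part of these markers in the values was not tested.

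**Figure D5:**
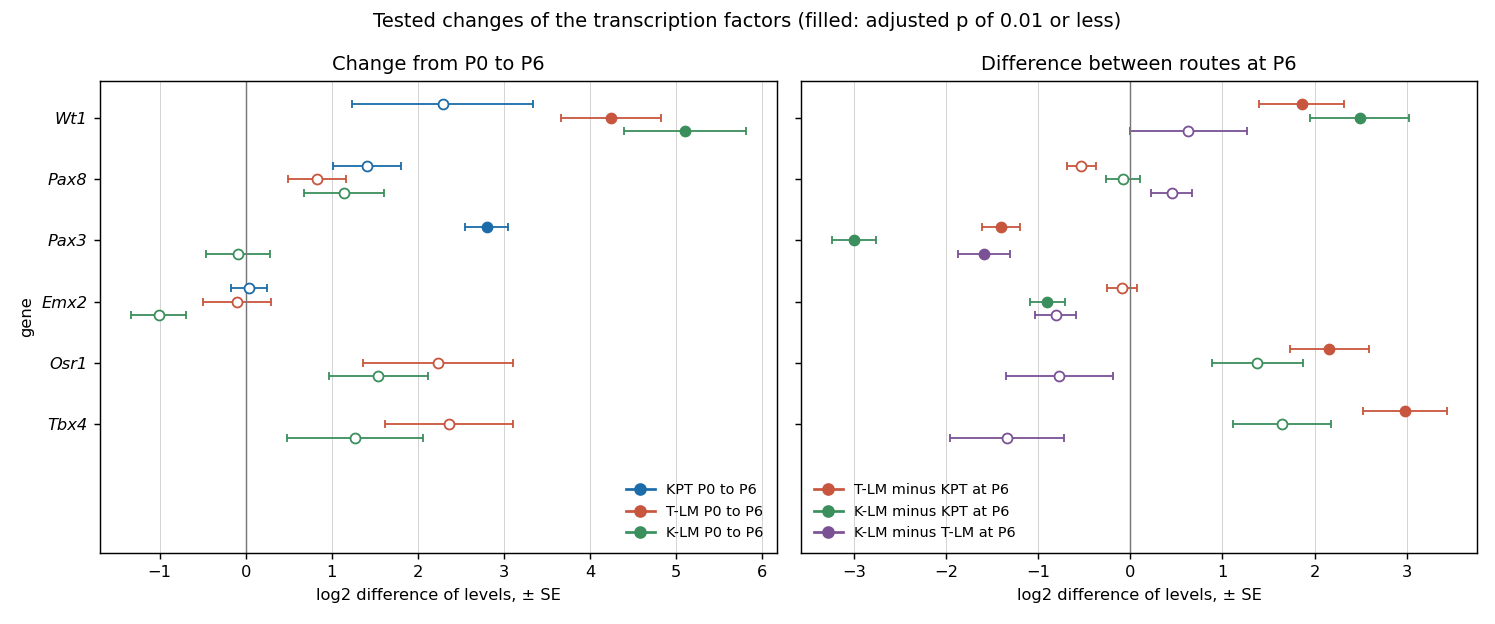
Tested log2 differences of levels with their standard errors (horizontal axis) for each factor (vertical axis), from P0 to P6 in the 3 routes and between routes at P6, filled where the adjusted p was 0.01 or less. Wt1 was called in T-LM and K-LM and Pax3 in KPT from P0 to P6, and factors not drawn in a comparison were not tested there.

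Other genes were read from 8 lists with 118 different genes. The lists covered kidney development and cell types, relatives of the factors, neural crest and muscle, limb and lung mesenchyme, and mesothelium. As for the members, only genes that passed background on 2 or more arrays of a fit were tested. A gene below background in P0 could enter only through groups where it passed. The counts and medians of all lists thus describe the tested genes and are no measure of how often such genes change. From P0 to P6, 3.40%, 5.90% and 4.08% of all tested probes were called higher in KPT, T-LM and K-LM. The nephric duct and ureteric bud list had called rises and no called fall in every route from P0 to P6. Of its 16 genes, 5 were tested in KPT and 7 each in T-LM and K-LM. In KPT 2 of the 5 rose and 0 fell, with a median of 2.16 against -0.01 over all probes. In T-LM 3 of 7 rose with a median of 2.19 against 0.00, and in K-LM 2 of 7 rose with a median of 1.68 against 0.00. The genes called were Grhl2, an epithelial factor, in all 3 routes, Etv4 in KPT and T-LM, and Etv5 in T-LM and K-LM, the latter pair being ETS factors downstream of Ret in the ureteric bud. Etv5 changed by 2.63 in K-LM (SE 0.535, adjusted p = 0.00155).

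The mesothelium list, for which Wt1 is the best-known factor, had 3 tested genes, and the other 6 of its 9 genes were not tested in these fits. Of the 3, 2 were called higher for KPT, 3 for T-LM and 2 for K-LM. Their medians were 3.34, 4.78 and 3.01, against -0.01, 0.00 and 0.00 over all probes. Krt19, a keratin that many simple epithelia also make, rose by 3.92 for KPT (SE 0.247, adjusted p = 1.60e-08), 6.22 for T-LM (SE 0.366, adjusted p = 9.72e-10) and 6.02 for K-LM (SE 0.536, adjusted p = 2.11e-08). Msln, the mesothelin gene, rose by 3.34, 4.54 and 3.01. Krt19, like Wt1, belongs to the study's K-LM signature, derived from these same samples, so its rise there is not independent evidence. Aldh1a2, which makes retinoic acid in the embryo, was called in T-LM, rising by 4.78 (SE 0.916, adjusted p = 0.00128) from P0 samples that were below background. At P6, Krt19, Msln and Aldh1a2 were all called higher in T-LM than in KPT, as Wt1 was. K-LM, where Wt1 was likewise above KPT, was called higher than KPT in Krt19 alone (median of the 3 genes 0.11), and it was called lower than T-LM in Msln and Aldh1a2 (median -1.44).

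The nephron progenitor list had medians of -0.01 for KPT, 0.99 for T-LM and 0.10 for K-LM. Of its tested genes, 1 of 7 rose in KPT (Bmp7, a survival factor of nephron progenitors, by 3.28), 1 of 11 in T-LM (Meox1) and 0 of 10 in K-LM, while limma gave an unadjusted p under 0.05 for 3, 6 and 4 of them. Among tubule regulators, Cdh16, the kidney-specific cadherin, rose by 3.63 in KPT (SE 0.650, adjusted p = 0.00161), also from below background in P0. It was lower at P6 in T-LM than in KPT by a fitted -2.71 and in K-LM by -3.36, both called, with KPT above the other routes as for Pax3. The tubule list as a whole did not share this order. Of its 5 genes tested at P6, 1 was called higher and 2 lower in T-LM than in KPT. In K-LM against KPT, Cdh16 was the only one called, and the list median was -0.01. Mitf, the melanocyte factor that Pax3 activates in neural crest, was the only called fall among the lists from P0 to P6, with changes of -1.45 for KPT (SE 0.299, adjusted p = 0.00521) and -1.52 for T-LM (SE 0.324, adjusted p = 0.00320). The relatives of the factors (other Pax, Lhx, Tbx and Egr genes, 28 in all) had 4 or 5 genes above background in a fit and 0 called in limma from P0 to P6, with medians of 0.14, 2.15 and 0.65 in KPT, T-LM and K-LM and 1 gene at an unadjusted p under 0.05 for KPT, 3 for T-LM and 2 for K-LM.

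Among 10760 genes well above background in at least 20 samples, the level of Wt1 over the 65 samples was most like that of C4b (Pearson r = 0.824), a complement gene, Ackr3 (0.812), an atypical chemokine receptor, and Gda (0.811). Pax8 was most like Sphk2 (0.808), Oplah (0.807) and Itgb4 (0.803), an integrin of epithelial cells. Emx2 was most like Pdzd8 (0.865), Ubr1 (0.864) and Mphosph9 (0.854). These samples share passages, slides and RNA balance, so the values are descriptions of likeness and carry no test.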

How the data were processed

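Total RNA of 65 samples, labelled with Cy5, was hybridised to 70 single-colour Agilent mouse arrays. The deposited scanner files hold each spot's intensity, which the authors' scanner software (Feature Extraction 11.0.1.1, and 12.0.2.2 on the late slide) had corrected for background and for trends over the array. The deposited series table holds log2 values, which matched the quantile-normalized raw median intensity within 0.105 and were used as an alternative. Slide, scan and software version of the late slide cannot be told apart.

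Control spots (3671 of 62976) and outlier spots were left out. Probes were named through RefSeq (GRCm38.p6), which gave 28026 of 55681 probes a symbol, and the brightest probe on average stands for each gene. The build of the array design is not given in the sources used here, so no probe coordinates are printed. Each route was fitted over its passages (P1 only for comparisons that use it) with limma 3.58.1, statmod 1.5.0 and R 4.3.3, 2-sided, with Benjamini-Hochberg adjustment over all tested probes. The fits of K-LM and of P6 included the repeat arrays and a late slide term, with RNA samples as random blocks. Other fits used first arrays only, while group levels average the arrays of a sample, so fitted changes can differ from differences of means. Lower bounds on a ratio are printed only where every array of the dimmer group failed background, every sample of the brighter passed and lifting dim signals gave no smaller ratio.

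The factors and gene lists were chosen with earlier results of these data known. By rule, all 9 factors and the 3 largest called rises and falls of the lists from P0 to P6 were named, and other list genes were named after their values were seen. Tested on simulated data, changes of 2 on the log2 scale from P0 to P6 were called for 79% of probes in KPT (20690 probes), 65% in T-LM (21055) and 81% in K-LM (21975). Changes of 1 were called for only 19.0%, 14.0% and 20.0%, so a change of that size can be present and not called. The simulation set no detection floor, unlike the dim signals of Pax3, Osr1 and Tbx4. Arrays have no counting depth, and their number limits the precision.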

Additional observations from a re-analysis of the deposited data

Results flagged for a closer look

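Samples that stood far from the rest of their group were looked for in 81 sets, a factor in a group of 4 to 6 samples, where chance alone marks about 1 in 20. The high samples were Pax2 in T-LM P1 replicate 2 (-4.64), Pax3 in KPT P1 replicate 5 (-6.72), Lhx1 in T-LM P6 replicate 3 (-7.04, below background), Osr1 and Tbx4 in T-LM P5 replicate 1 (-2.99 and -4.70) and Emx2 in KPT P5 replicate 1 (-6.07, below background). The low sample was Osr1 in LOT1 of T-LM P1, at -8.62.

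The routes differed in their P6 level by a test of the difference itself. T-LM minus KPT was 1.86 for Wt1, -1.40 for Pax3, 2.16 for Osr1 and 2.98 for Tbx4. K-LM minus KPT was 2.49 for Wt1, -3.00 for Pax3 and -0.90 for Emx2, and K-LM minus T-LM was -1.59 for Pax3.

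The single K-LM P1 sample, which enters no comparison, had Osr1 at -3.79 and Tbx4 at -4.07, both above background and above both P0 samples, and its fibroblast and stroma list was at -0.38 with 8 of 8 markers above background. No explanation was tested.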

How the results depend on the processing

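Called members were recounted under each alternative, and the cause of a changed count was not tested. From P0 to P6 the count of 1 in KPT became 0 with a floor on dim signals and with a stricter filter on background, which left Pax3 untested, and 2 (Pax8 and Pax3) with the compared groups only or the late slide only. The count of 1 in T-LM became 2 with the authors' values and the compared groups only (Wt1 and Tbx4), and 2 in a fit of all routes (Wt1 and Pax3). The count of 1 in K-LM became 2 with the floor (Wt1 and Emx2), 3 with the compared groups only (Wt1, Pax8 and Emx2) and 2 on the late slide only (Wt1 and Pax8).

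From P3 to P6 the count of 1 became 0 in KPT and T-LM with the floor, the stricter filter and the slide as a block, 0 in KPT with the RNA balance index, and in K-LM 0 without a filter, with the index and in a fit of all routes, and 2 (Wt1 and Pax3) without the slide term. In K-LM the percentile over all probes called Pax3 in place of Wt1. From P1 to P6 the KPT count became 0 with the stricter filter, which left Pax3 untested, and the T-LM count became 1 (Pax3) in a fit of all routes. At P6 the T-LM and KPT count of 4 became 2 with the floor (Wt1 and Pax3), 1 with the stricter filter (Wt1) and 2 in a fit of all routes (Pax3 and Tbx4). The K-LM and KPT count of 3 became 1 (Pax3) in a fit of all routes and on the late slide only. The K-LM and T-LM count of 1 became 0 with the floor and the stricter filter, 2 with the index (Pax3 and Emx2) and 3 without the slide term (Pax8, Pax3 and Tbx4).

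With single samples left out the count ranged from 0 to 1 from P3 to P6 in each route and from 1 to 2 between K-LM and T-LM at P6 (Emx2 joined without K-LM P6 replicate 2 and Tbx4 without replicate 3). It ranged from 3 to 4 between T-LM and KPT and from 2 to 3 between K-LM and KPT, and it was unchanged in the other 5 comparisons.

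In no comparison did every pair of same-numbered samples correlate above 0.1 or every sample correlate best with its own number. The largest number of such pairs was 3 of 5, for KPT from P1 to P6 (-0.230 to 0.253), with 2 of 4 between T-LM and KPT at P6 and 1 of 3 from P3 to P6 in K-LM (0.0103 to 0.225). With the replicate block the count was 2 in T-LM from P0 to P6 (Wt1 and Tbx4) and 0 from P3 to P6 in T-LM and K-LM, and Emx2 in KPT was -0.03 and Pax3 in K-LM 0.05 from P0 to P6.

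Direction turned for these values, none called in the report except Pax3 between K-LM and T-LM. Emx2 from P0 to P6 in KPT was -0.09 over all probes, -0.05 with normexp and the authors' values, -0.19 with the floor, 0.00 with the index, -0.14 with the slide as a block, -0.11 in a fit of all routes, -0.29 on the late slide and -0.05 to 0.08 with samples left out. In T-LM it was 0.07 with the slide as a block. Pax3 in K-LM from P0 to P6 was 0.03 with normexp, 0.01 with the authors' values, 0.04 with the floor and -0.32 to 0.07 with samples left out, and from P3 to P6 it was 0.14 with the floor. At P6, Emx2 in T-LM against KPT was 0.00 with the index and -0.16 to 0.00 with samples left out, Pax8 in K-LM against KPT was 0.22 without the slide term and 0.02 on the late slide, and in K-LM against T-LM, Osr1 was 0.27 and Pax3 0.34 with the floor. The percentile over all probes moved the median of all probes by -0.27 to 0.19.

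Of the 9 factors, 3 were near background in nearly all samples and the calls for Pax3, Osr1 and Tbx4 rest on groups partly or wholly below it, so their sizes depend on how dim signals are treated. Group sizes of 1 to 6 limit every comparison, and 2 P0 samples set every change from P0.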
